A study of Mus musculus with 65 samples.

Results

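The 32 genes described here belong to the mature oligodendrocyte, the cell that makes myelin in the central nervous system. They were taken as a list of gene symbols, and all 32 were found among the 49670 gene identifiers of the count table and passed the filter on low counts in every region and age. By role they are 9 structural and membrane proteins of the sheath (Mbp, Mog, Mag, Mobp, Cnp, Cldn11, Opalin, Ermn, Tspan2), 3 gap junction and nodal proteins (Gjc3, Gjb1, Hapln2), 4 lipid enzymes (Ugt8a, Fa2h, Gal3st1, Aspa), 5 transcription factors (Myrf, Sox10, Olig1, Olig2, Nkx6-2) and 11 others (Enpp2, Trf, Apod, Car2, Erbb3, Anln, Plekhb1, Evi2a, Tmem125, Prr18, Nkain1). RNA was sequenced from 65 dissected samples of C57BL/6J mice. The mice were wild type, or carried the Atxn1[82Q] knockin, an allele of the ataxin-1 gene with an expanded glutamine repeat, the kind of mutation that causes a spinocerebellar ataxia. Wild type mice received vehicle. Knockin mice received vehicle too, or an oligonucleotide (ASO) antisense to Atxn1; no group of wild type mice had ASO. Cerebellum was taken at 18 weeks with 4 libraries in each of the 3 groups, and medulla and pons at 18 weeks with 3 in each. At 28 weeks pons had 4 libraries in each group; medulla had 8 from wild type, 8 from knockin with vehicle and 7 from knockin with ASO, which the labels split into 2 batches.

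Myelin is a spiral of oligodendrocyte membrane around an axon that insulates it and speeds conduction. Basic proteins hold its inner faces together, its lipid is rich in cholesterol and in the galactolipids galactosylceramide and sulfatide, and its genes are switched on by a cascade of transcription factors that runs through OLIG2 and SOX10 to MYRF. The brainstem holds long myelinated tracts, whereas much of the cerebellum is grey matter. In bulk tissue, fewer oligodendrocytes and less of a transcript in each oligodendrocyte cannot be told apart.

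Promoter stretches of 5 members are shown because MYRF binds myelin genes directly, and to set members with its motif beside one without. Each is the 250 bases before the start site, from RefSeq (GRCm38.p6), in lower case, with matches to the MYRF core motif CTGGCAC or CTGGTAC on either strand in capitals. They are Mog (chr17:37023399-37023648, minus strand), Mag (chr7:30914923-30915172, minus strand), Cnp (chr11:100574689-100574938, plus strand), Hapln2 (chr3:88027512-88027761, minus strand) and Ugt8a (chr3:125938653-125938902, minus strand). In the first 4 the match began 83, 9, 81 and 144 bases before the start site, and Ugt8a, a lipid enzyme gene described further on, has none.
Mog: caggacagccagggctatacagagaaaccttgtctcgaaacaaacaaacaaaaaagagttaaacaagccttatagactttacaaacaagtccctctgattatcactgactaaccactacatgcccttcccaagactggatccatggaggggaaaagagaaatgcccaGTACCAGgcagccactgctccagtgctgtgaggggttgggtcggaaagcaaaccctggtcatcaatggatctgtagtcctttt
Mag: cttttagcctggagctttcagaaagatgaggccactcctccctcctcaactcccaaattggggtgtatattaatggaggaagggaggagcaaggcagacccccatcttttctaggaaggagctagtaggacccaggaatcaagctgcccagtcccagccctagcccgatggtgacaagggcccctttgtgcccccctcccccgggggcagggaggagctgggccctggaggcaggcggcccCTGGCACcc
Cnp: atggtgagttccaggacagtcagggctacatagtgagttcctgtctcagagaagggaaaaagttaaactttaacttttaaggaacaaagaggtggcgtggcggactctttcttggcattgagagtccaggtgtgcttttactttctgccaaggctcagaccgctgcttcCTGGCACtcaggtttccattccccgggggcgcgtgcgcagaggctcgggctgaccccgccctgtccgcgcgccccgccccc
Hapln2: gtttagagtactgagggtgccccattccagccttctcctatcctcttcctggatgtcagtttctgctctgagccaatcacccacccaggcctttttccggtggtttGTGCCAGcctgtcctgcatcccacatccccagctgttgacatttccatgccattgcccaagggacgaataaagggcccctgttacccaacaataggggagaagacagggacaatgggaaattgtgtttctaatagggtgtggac
Ugt8a: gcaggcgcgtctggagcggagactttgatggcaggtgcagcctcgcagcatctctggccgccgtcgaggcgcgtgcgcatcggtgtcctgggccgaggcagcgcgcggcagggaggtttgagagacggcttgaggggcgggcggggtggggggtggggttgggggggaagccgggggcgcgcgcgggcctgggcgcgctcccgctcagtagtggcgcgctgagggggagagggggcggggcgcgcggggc
A window from 250 bases before to 50 after a start was found for 22 of the 32 members. Either form was in 7 of the 22 (31.8%), namely Mog, Mag, Cnp, Opalin, Hapln2, Tmem125 and Prr18, and in 8.1% of all 27025 genes with a window. A match is a string of letters and was not measured as a binding site.

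Several libraries stood apart. In the medulla at 28 weeks Atxn1 ranged over 30.3 to 38.6 CPM (counts scaled to the size of the library) in wild type and 40 to 47.7 in vehicle-treated knockin, and it was 49.3 in the library labelled ASO replicate 2, where the other 6 had 24.8 to 33.5. In the pons at 28 weeks the library labelled ASO replicate 2, whose column name ends in the same number, had 52.4 CPM, and the other 3 had 26.7, 36.8 and 30.1. Vehicle-treated knockin replicate 4 had 45.2 CPM in pons, and the other 3 had 60.9, 57.8 and 59.1. At 18 weeks the library labelled wild type replicate 3 had 15.1 CPM in medulla and 16.5 in pons, and the library labelled ASO replicate 2 had 38.4 and 50.9; these 4 libraries went against their labels. In pons the library labelled wild type replicate 1 had 51, above all 3 vehicle-treated knockin libraries (44.7, 45.4 and 49.3), and so went against its label too. Total counts ran from 49.2 to 119.1 M per library, with a median of 77.0 M. The labels do not say that libraries of a group came from separate animals, so the p-values measure the spread between libraries, which may be technical.

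The defining markers Mog, Mag and Opalin were detected in every region. They are members themselves, so this is no check of the name of the list. In wild type medulla at 18 weeks, Mbp, the myelin basic protein gene, had the highest level per kilobase of exon, 865 ± 17.9 CPM per kb (SD, n = 3), and Erbb3, a neuregulin receptor, the lowest, 5.97 ± 0.486. Enpp2, described further on, came second with a wide spread, 491 ± 324, and Mobp, another basic protein of compact myelin, followed at 397 ± 50.4. Plekhb1 had 266 ± 21.1, Cnp, a phosphodiesterase of uncompacted myelin, 226 ± 18.7, Apod, which encodes the lipid carrier apolipoprotein D, 218 ± 42.4 and Car2, a carbonic anhydrase, 197 ± 27.4. From Cnp to Car2 these neighbours did not differ beyond their spread. The transcription factors were lower, from 73.9 ± 9.56 for Olig1 through 27.3 ± 4.22 for Sox10 and 18.2 ± 0.799 for Myrf to 17.1 ± 0.874 for Olig2 and 13.9 ± 2.76 for Nkx6-2. These means include the library labelled wild type replicate 3. Trf, the transferrin gene, had 8.7 ± 0.223 CPM per kb; 63.5% of its exon bases also belong to Gm20425 on the same strand, so its counts are uncertain. Evi2a shares 19.2% of its exon bases with Evi2 in the same way.

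Cerebellum held less of nearly every member than the brainstem. The regions were compared with edgeR's quasi-likelihood test and Benjamini-Hochberg adjustment over all genes. In wild type cerebellum at 18 weeks 29 of 32 members were lower than in wild type medulla (27.7% of all genes were lower). Another 1 was higher, as were 6161 of the 21368 genes tested. The members' median log2 difference was -1.24, against 0.02 over all genes. Against pons 29 members were lower (26.1% of all genes) and 1 higher (4776 of the 21428 genes tested). Mbp had 326 ± 14.6 CPM per kb in cerebellum (SD, n = 4), a log2 difference from medulla of -1.42 ± 0.11 (SE), adjusted p = 1.1e-09. Among the members that were lower, Mobp differed most (-1.71 ± 0.13), and Gjc3, a connexin gene, least (-0.38 ± 0.13). The exception was Nkain1, whose product interacts with the sodium pump. It had 40.8 ± 1.09 CPM per kb in cerebellum and 27.2 ± 3.27 in medulla (0.58 ± 0.13, adjusted p = 0.00089). Trf and Enpp2 did not pass. Without wild type replicate 3 and ASO replicate 2 of 18 weeks, 29 members were lower and 1 higher against medulla, and 27 and 0 against pons. Without pons wild type replicate 1, 29 were lower and 1 higher against pons. The share over all genes without these libraries is not given.

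Between wild type medulla and pons at 28 weeks, 4 members were higher in medulla (6.35% of all genes were): Mbp by log2 0.32 ± 0.09, Gal3st1 by 0.27 ± 0.08, Nkx6-2 by 0.30 ± 0.09 and Plekhb1 by 0.36 ± 0.08. With the number that ends the column names as a block, which ties medulla to pons libraries, 0 passed, and with wild type libraries alone 11 were higher and 1 lower. Leaving out pons wild type replicate 1 gave 1 and leaving out replicate 3 gave 2. The share over all genes in these settings is not given.

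**Figure D1:**
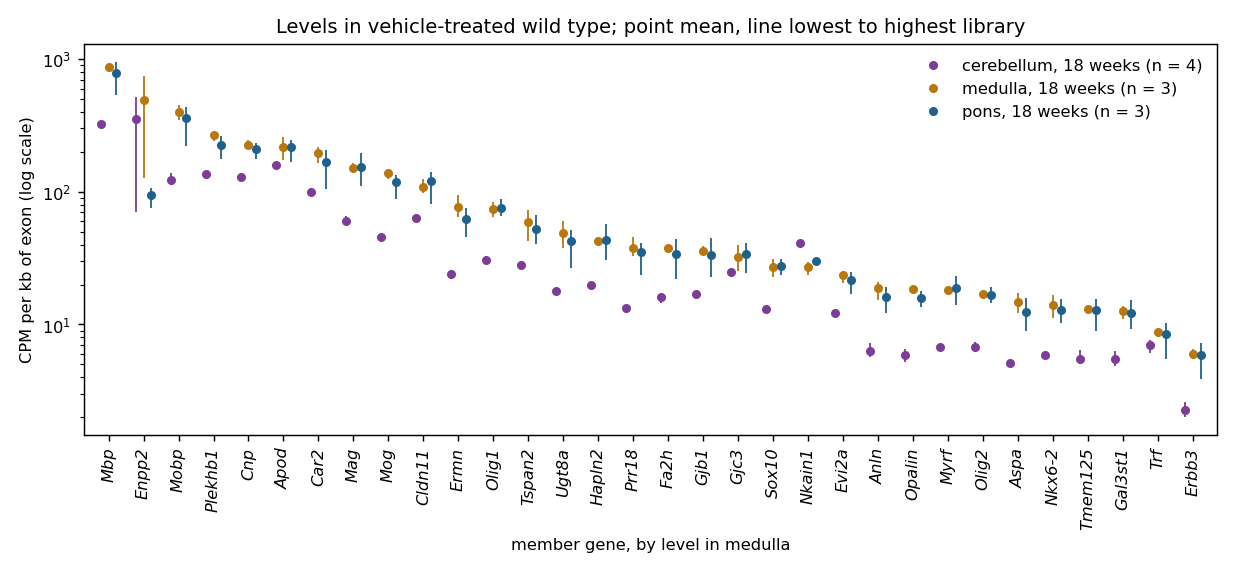
Mean level of each member in vehicle-treated wild type mice at 18 weeks, in CPM per kb of exon on a log axis, with lines from the lowest to the highest library, for cerebellum (n = 4), medulla (n = 3) and pons (n = 3). Cerebellum lies below medulla for nearly all members, Nkain1 lies above it, and Enpp2 spreads widely between libraries.

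At 28 weeks, transcripts of myelin genes were lower in the medulla of vehicle-treated knockin mice than in wild type. Of the 32 members 23 fell, where 9.99% of all genes fell, and 1, Apod, rose, where 9.28% of all genes rose (edgeR's quasi-likelihood test with batch in the model, adjusted p under 0.05). The median log2 difference was -0.25 over the members and 0.01 over all 20465 genes tested. The medians by role were -0.53 for the 4 lipid enzymes, -0.24 for the 9 sheath proteins, -0.25 for the 3 gap junction and nodal proteins, -0.20 for the 5 transcription factors and -0.17 for the other 11 genes. In batch 1 alone 13 members fell and 0 rose, and in batch 2 alone 16 fell and 1 rose. Without wild type replicate 5, knockin replicate 8 and ASO replicates 6 and 7, libraries low in Hox genes, which mark the caudal hindbrain, 23 fell and 1 rose. For these settings the share over all genes is not given. Of the 7 members with a MYRF motif in the promoter window 4 fell, with a median of -0.18, and of the 15 without one 11 fell, with a median of -0.34.

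The 4 lipid enzymes all fell. Ugt8a, the transferase that makes galactosylceramide, had 213 to 270 (median 231) CPM in wild type and 128 to 176 (median 150) in vehicle-treated knockin. The groups (n = 8 each) did not overlap, and the log2 difference was -0.65 ± 0.07 (SE), adjusted p = 2.4e-06. Fa2h, which hydroxylates the fatty acids of these galactolipids, had 125 to 167 (median 130) CPM in wild type and 72.7 to 100 (median 88.8) in knockin. Every knockin library was below every wild type library (-0.63 ± 0.07, adjusted p = 8.7e-07). Gal3st1, the sulfotransferase that turns galactosylceramide into sulfatide, had 30.4 to 37.7 (median 33.6) CPM against 22.7 to 27.3 (median 24.5), also without overlap (-0.43 ± 0.05, adjusted p = 3.1e-06). Aspa, aspartoacylase, frees acetate from N-acetylaspartate. It had 78.5 to 91.2 (median 81.2) CPM in wild type and 56.3 to 75.9 (median 62.8) in knockin, again apart (-0.37 ± 0.07, adjusted p = 0.0011). In batch 1 alone the adjusted p of Ugt8a was 0.0032, of Fa2h 0.0032, of Gal3st1 0.005 and of Aspa 0.021. In batch 2 alone they were 0.0015, 0.0016, 0.0028 and 0.057, in the same order of genes.

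Among the 9 sheath proteins 6 fell. Cldn11, the claudin of the tight junction strands between myelin layers, had 251 to 349 (median 291) CPM in wild type and 174 to 235 (median 215) in knockin. The groups did not overlap (-0.50 ± 0.08, adjusted p = 0.00018). Tspan2, a tetraspanin of the sheath, had 231 to 278 (median 264) CPM against 146 to 219 (median 189), also apart (-0.47 ± 0.08, adjusted p = 0.0002). Mobp had 2438 to 3789 (median 2904) CPM against 1781 to 2555 (median 2237). Its highest knockin library passed the lowest wild type library (-0.46 ± 0.08, adjusted p = 0.00018). Mbp, the most abundant member, had 8227 to 11328 (median 9238) CPM in wild type and 6558 to 9252 (median 7961) in knockin, with overlap (-0.24 ± 0.06, adjusted p = 0.0067). Ermn, an actin-binding protein of the sheath, fell by 0.27 ± 0.07 (adjusted p = 0.0099), and Mag, the adhesion protein that faces the axon, fell by 0.18 ± 0.05 (adjusted p = 0.013). The other 3 did not pass: Mog, a surface protein of the outermost layer, had -0.15 ± 0.06 (95% interval -0.27 to -0.02), Cnp -0.15 ± 0.06 (-0.27 to -0.02) and Opalin -0.19 ± 0.07 (-0.33 to -0.05), with adjusted p-values of 0.086, 0.095 and 0.052. The calls of Mbp and Mag did not hold in either batch alone, with adjusted p-values for Mbp of 0.15 and 0.051.

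All 3 gap junction and nodal genes fell. Gjc3 had 137 to 162 (median 151) CPM in wild type and 104 to 131 (median 122) in knockin. There was no overlap (-0.34 ± 0.05, adjusted p = 0.00011). Gjb1, a connexin of the sheath, fell by 0.25 ± 0.07 (adjusted p = 0.012), and Hapln2, a link protein of the matrix at nodes of Ranvier, fell by 0.17 ± 0.04 (adjusted p = 0.0013).

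Of the transcription factors 4 of 5 fell. Nkx6-2, a homeodomain factor of the lineage, had 37.9 to 54.8 (median 40.3) CPM in wild type and 26.3 to 35.6 (median 32.4) in knockin. The groups were apart (-0.45 ± 0.07, adjusted p = 0.00016). Sox10 had 103 to 124 (median 110) CPM against 76.7 to 105 (median 95.1), and the ranges met at their edges (-0.25 ± 0.05, adjusted p = 0.0021). Myrf, which drives the myelin genes in mature cells, fell by 0.20 ± 0.05 (adjusted p = 0.0076; 0.077 in batch 1 alone and 0.091 in batch 2 alone). Olig1 fell by 0.13 ± 0.04 (adjusted p = 0.023), a call that ended in 3 of 32 alternative settings, namely without wild type replicate 3, without wild type replicate 8 and in batch 1 alone (adjusted p up to 0.39). Olig2, which marks the lineage from precursor to mature cell, had 40.3 to 59.5 (median 50.8) CPM in wild type and 39.1 to 53.4 (median 45.9) in knockin. These ranges lay over each other (-0.07 ± 0.06, 95% interval -0.20 to 0.06, adjusted p = 0.46).

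The other 11 genes held the largest falls and the 1 rise. Prr18 had 153 to 169 (median 161) CPM in wild type and 92.4 to 112 (median 99.5) in knockin, with a wide gap between the groups (-0.67 ± 0.07, adjusted p = 5.9e-07). Erbb3, the neuregulin receptor, had 31.7 to 42.1 (median 37.4) CPM against 18 to 29.1 (median 22), without overlap (-0.67 ± 0.09, adjusted p = 1.9e-05). Car2 had 509 to 633 (median 553) CPM against 303 to 429 (median 351), also apart (-0.66 ± 0.08, adjusted p = 5.8e-06). Tmem125 fell by 0.31 ± 0.06 (adjusted p = 0.0005), Trf fell by 0.37 ± 0.09 (adjusted p = 0.0076), and Nkain1 fell by 0.17 ± 0.06 (adjusted p = 0.036), a call that ended in 11 of 32 settings (adjusted p up to 0.36), among them leaving out any one of wild type replicates 1, 2, 3 and 5, knockin replicates 1, 4 and 5 and ASO replicate 5. Apod had 536 to 863 (median 624) CPM in wild type and 616 to 1008 (median 823) in knockin. The knockin libraries were shifted up with overlap (0.32 ± 0.08, adjusted p = 0.0084; 0.28 in batch 1 alone and 0.029 in batch 2 alone). Anln, an actin-binding scaffold, had 0.06 ± 0.08, Plekhb1 -0.13 ± 0.06 and Evi2a 0.02 ± 0.06, and none of these passed.

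**Figure D2:**
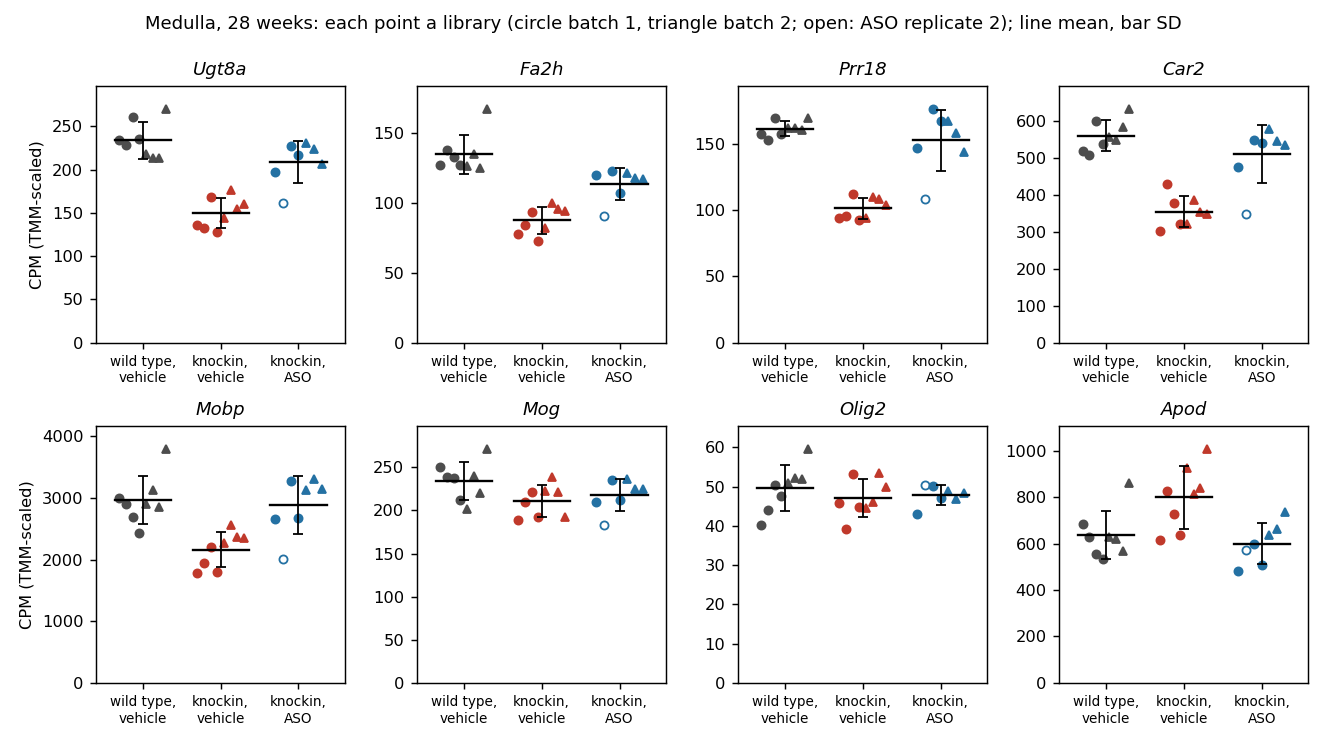
TMM-scaled CPM of 8 members in each medulla library at 28 weeks, by group, with circles for batch 1, triangles for batch 2, lines for the mean and bars for the SD (n = 8, 8 and 7). For Ugt8a, Fa2h, Prr18 and Car2 all vehicle-treated knockin libraries lie below all wild type libraries, for Mog and Olig2 the groups overlap, Apod is shifted up, and the open circle is ASO replicate 2.

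Enpp2, which encodes autotaxin, is also abundant in choroid plexus epithelium. Its highest values came with high levels of that tissue's marker Ttr, the transthyretin gene. Enpp2 had 547 to 2162 (median 1143) CPM in wild type medulla at 28 weeks and 651 to 8474 (median 1361) in vehicle-treated knockin. The highest library, knockin replicate 2, had 8474 CPM of Enpp2 and 23245 of Ttr, and knockin replicate 5 had 656 and 109. The summed level of 8 choroid plexus genes was 32.8 to 4535 CPM in wild type and 128 to 24437 in vehicle-treated knockin, and their part in the values of Enpp2 was not tested. The log2 difference of Enpp2 was 0.54 ± 0.56, with a 95% interval of -0.64 to 1.72 (adjusted p = 0.56). In cerebellum Enpp2 was 219 CPM in ASO replicate 2, which had 3.65 of Ttr, and 3032 in wild type replicate 4, which had 6522. In pons at 18 weeks vehicle-treated replicate 1 had 6071 CPM of Enpp2 and 9413 of Ttr. The other 2 had 747 and 749 of Enpp2, with 4.64 and 142 of Ttr.

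**Figure D3:**
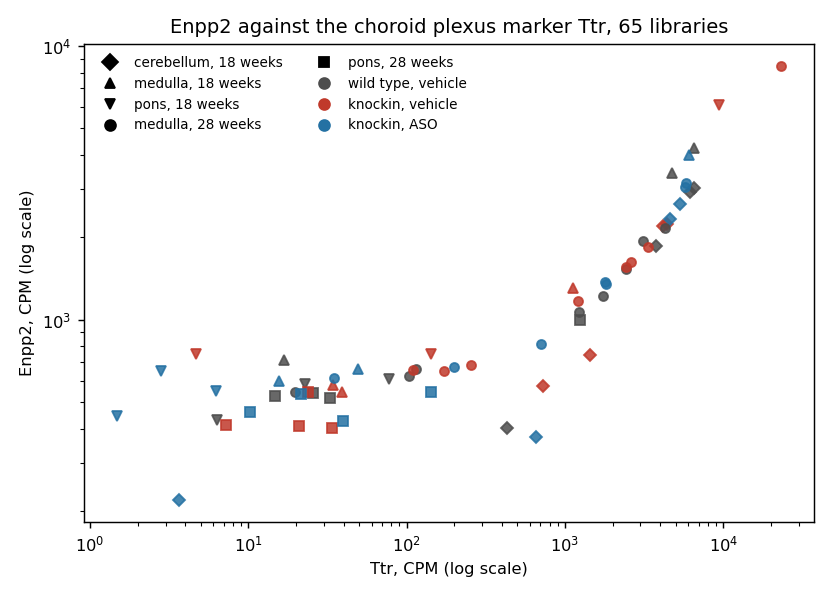
CPM of Enpp2 against CPM of the choroid plexus marker Ttr, both on log axes, in each of the 65 libraries, with shape for region and age and colour for group. Enpp2 lies in a low band where Ttr is low and climbs with Ttr to 8474 CPM at 23245 CPM.

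In pons at 28 weeks 14 of the 32 members fell in vehicle-treated knockin, where 5.65% of all 20458 genes tested fell. Of the members 0 rose, where 847 of all genes did. The median log2 difference was -0.45, against 0.01 over all genes. All 14 were among the 23 that fell in medulla (100% of the pons genes and 60.9% of the medulla genes). Over all genes 1155 fell in pons and 2045 in medulla. Their overlap was not counted, so the overlap of the members is not shown to be particular to them. Medulla and pons columns share ending numbers, and the samples of the regions may come from the same mice. By role 4 of 4 lipid enzymes fell (median -0.72), 4 of 9 sheath proteins (Mobp, Cldn11, Ermn and Tspan2; median -0.46), 1 of 3 gap junction and nodal genes (Gjc3), 1 of 5 transcription factors (Nkx6-2) and 4 of the other 11 (Car2, Erbb3, Tmem125 and Prr18). Mbp had -0.46 ± 0.14 (adjusted p = 0.055), Sox10 -0.31 ± 0.10 (adjusted p = 0.069) and Olig2 -0.09 ± 0.08 (adjusted p = 0.53), and none of these passed.

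Ugt8a had 190, 209, 222 and 214 CPM in the 4 wild type pons libraries and 105, 97.4, 99.4 and 141 in the 4 vehicle-treated knockin libraries. All knockin values lay below all wild type values (-0.91 ± 0.14, adjusted p = 0.0031). Car2 had 425, 476, 479 and 499 CPM against 244, 243, 225 and 306, again apart (-0.88 ± 0.13, adjusted p = 0.0024). Gjc3 had 176, 157, 181 and 169 CPM against 107, 107, 107 and 131, also apart (-0.60 ± 0.09, adjusted p = 0.0023). Among the transcription factors Nkx6-2 had 35.4, 37.6, 36.1 and 36.5 CPM against 25.4, 24.1, 25 and 35. Here knockin replicate 4 came close to the wild type libraries (-0.41 ± 0.10, adjusted p = 0.021). Of the other lipid enzymes, Fa2h fell by 0.80 ± 0.15 (adjusted p = 0.0085), Aspa fell by 0.64 ± 0.11 (adjusted p = 0.0062) and Gal3st1 fell by 0.43 ± 0.10 (adjusted p = 0.017).

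Vehicle-treated knockin replicate 4 was the highest of its group for every member in pons except Erbb3. Mog, the outer surface protein, had 160, 159 and 150 CPM in replicates 1 to 3 and 231 in replicate 4, where wild type had 226, 217, 200 and 211. The Mog difference was -0.29 ± 0.13 (adjusted p = 0.19) with replicate 4, and -0.46 ± 0.08 (adjusted p = 0.0027) without it. Apod had 553, 524 and 561 CPM and 913 in replicate 4, where wild type had 650, 660, 585 and 596; its difference was 0.03 ± 0.19 with that library and -0.20 ± 0.13 without it. Erbb3 had 21.6, 22.5, 22.6 and 21.2 CPM in knockin, all close together. Leaving out replicate 4 gave 26 members that fell, leaving out knockin replicate 1, 2 or 3 gave 7, 7 and 7, and leaving out wild type replicate 2 gave 9. Counts over all genes in these settings are not given, so the shifts are not shown to be particular to the members. Gjc3, Ugt8a, Fa2h, Aspa, Car2, Erbb3 and Prr18 were called in all 17 alternative settings. The part of the Atxn1 level of replicate 4 in these values was not tested.

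**Figure D4:**
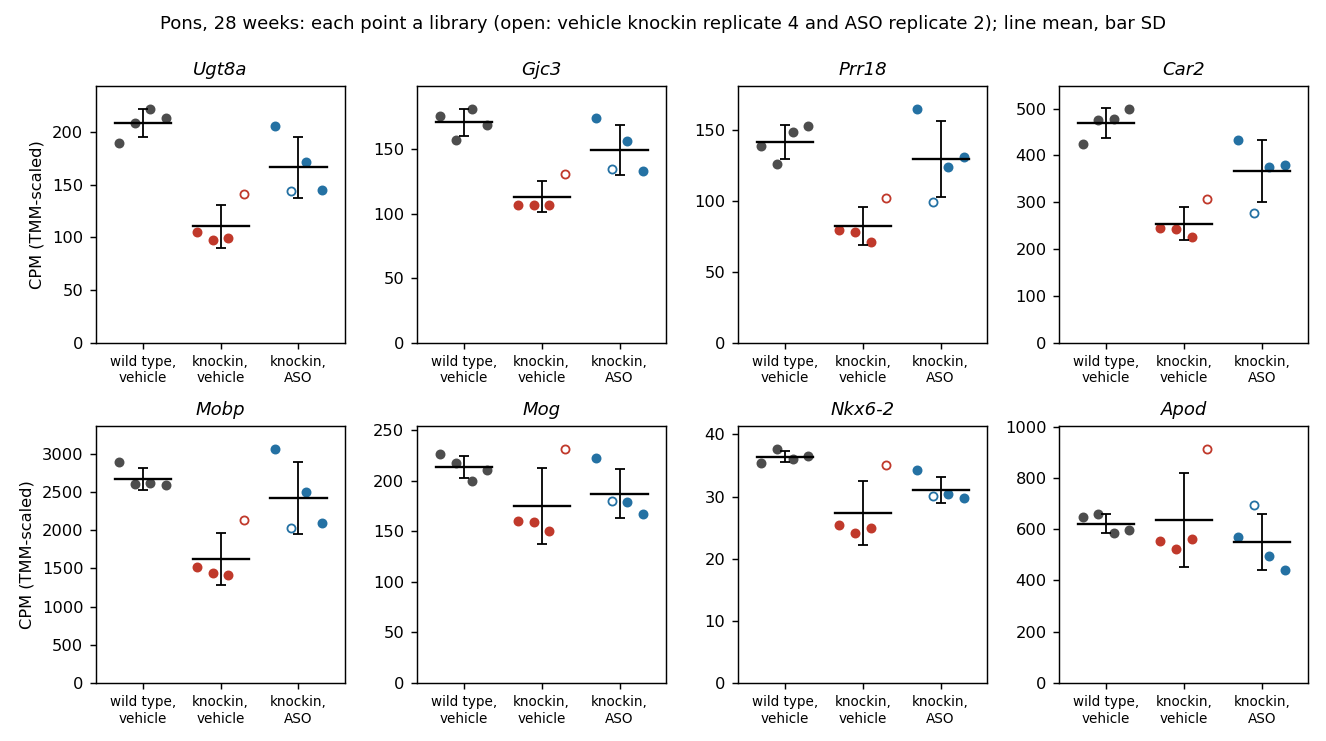
TMM-scaled CPM of 8 members in each pons library at 28 weeks (n = 4 in each group), with lines for the mean and bars for the SD, and with vehicle-treated knockin replicate 4 and ASO replicate 2 as open circles. Replicate 4 is the highest of its group in all 8 panels, and for Ugt8a, Gjc3, Prr18, Car2 and Mobp it still lies below every wild type library.

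Whether the knockin difference itself differed between medulla and pons at 28 weeks was tested in a model of both regions. That model had no term for the ending numbers of the column names, 12 of which the regions share. It was called for 0 of 32 members (0.0184% of all genes; edgeR's quasi-likelihood test, smallest adjusted p 0.5), and 2 members, Gjc3 and Aspa, had an unadjusted p under 0.05, as did 8.07% of all genes. Medulla minus pons, the median was 0.15 (0.01 over all genes) and 30 of 32 members were positive, the sign of a smaller fall in medulla. Without pons knockin replicate 4, 1 member was called, and the share over all genes there is not given. The 2 regions are thus not shown to differ.

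In the medulla at 28 weeks 10 members were higher in ASO-treated than in vehicle-treated knockin mice, where 1.3% of all genes were, and 1, Apod, was lower, where 0.386% of all genes were. The 10 were Mobp, Cldn11 and Tspan2 of the sheath, Gjc3, the lipid enzymes Ugt8a, Fa2h and Aspa, and Car2, Erbb3 and Prr18. Of the 5 transcription factors 0 passed (edgeR's quasi-likelihood test, 0 at an unadjusted p under 0.05): Nkx6-2 had 0.12 ± 0.08, Myrf 0.08 ± 0.05, Sox10 0.05 ± 0.06, Olig2 0.03 ± 0.06 and Olig1 -0.01 ± 0.04. The members' median was 0.10, against -0.01 over all genes. This comparison and the one of knockin with wild type share the vehicle-treated knockin libraries, so their values are only set side by side.

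Prr18 had 108 to 176 (median 158) CPM in the 7 ASO-treated libraries, 92.4 to 112 in vehicle-treated knockin and 153 to 169 in wild type. The 6 libraries other than ASO replicate 2 were all above the vehicle-treated knockin (0.60 ± 0.07, adjusted p = 0.00022). Against wild type Prr18 differed by -0.08 ± 0.07 (95% interval -0.22 to 0.07). Car2, the carbonic anhydrase, had 349 to 580 (median 541) CPM after ASO, with ASO replicate 2 the lowest and within the vehicle range of 303 to 429. Its differences were 0.53 ± 0.08 (adjusted p = 0.0013) from vehicle and -0.13 ± 0.08 from wild type. Ugt8a, the galactosylceramide enzyme, had 161 to 231 (median 217) CPM, with differences of 0.48 ± 0.08 (adjusted p = 0.0012) from vehicle and -0.16 ± 0.08 (95% interval -0.32 to -0.00) from wild type. Mobp had 2012 to 3309 (median 3125) CPM, with differences of 0.44 ± 0.08 (adjusted p = 0.0043) from vehicle and -0.02 ± 0.08 from wild type. For Prr18, Car2, Ugt8a and Mobp alike, ASO replicate 2 was the 1 library of 7 that lay inside the vehicle-treated range.

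Erbb3 had 28.1 to 38.1 (median 34.2) CPM after ASO, where vehicle had 18 to 29.1 (0.52 ± 0.09, adjusted p = 0.0049), and Tspan2 had 174 to 301 (median 264) (0.46 ± 0.08, adjusted p = 0.004). Fa2h, the hydroxylase, had 90.5 to 123 (median 118) CPM, above vehicle (0.39 ± 0.07, adjusted p = 0.0034). All 7 of its values were below the wild type range of 125 to 167, with a difference of -0.24 ± 0.07 (adjusted p = 0.053). Cldn11, Aspa and Gjc3 differed from vehicle by 0.35 ± 0.09, 0.34 ± 0.08 and 0.30 ± 0.06 (adjusted p = 0.037, 0.02 and 0.005), and the call of Cldn11 ended in 17 of 32 alternative settings (adjusted p up to 0.5), among them leaving out any one of ASO replicates 1 and 3 to 7 and knockin replicates 1, 4, 5, 7 and 8. The call of Aspa ended in 7 (adjusted p up to 0.35), among them leaving out ASO replicate 3, 4 or 5. Apod, the lipid carrier, had 484 to 736 (median 597) CPM, with differences of -0.39 ± 0.09 (adjusted p = 0.018) from vehicle and -0.07 ± 0.09 from wild type. Gal3st1 did not pass against vehicle (0.19 ± 0.05, adjusted p = 0.073).

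Against wild type 4 members were lower in ASO-treated medulla, where 2.02% of all genes were: Gal3st1 (-0.25 ± 0.05, adjusted p = 0.013), Nkx6-2 (-0.33 ± 0.08, adjusted p = 0.019), Hapln2 (-0.14 ± 0.04, adjusted p = 0.029) and Sox10 (-0.20 ± 0.06, adjusted p = 0.045). Nkx6-2 had 29.8 to 37.5 (median 34.6) CPM after ASO, and all 7 values were below the lowest wild type library. In batch 1 alone 0 passed and in batch 2 alone 0 (DESeq2 called 6 in both batches together). Without the libraries low in Hox genes 1 passed. Leaving out ASO replicate 4, 5 or 6, or wild type replicate 3, 4 or 8, gave 2 members. For these settings and DESeq2 the share over all genes is not given. Over 32 alternative settings the call of Sox10 ended in 19, of Hapln2 in 12, of Nkx6-2 in 3 and of Gal3st1 in 2; both Sox10 and Hapln2 also lost it without ASO replicate 1.

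Between ASO and vehicle, batch 1 alone, which holds ASO replicate 2, gave 0 members, and batch 2 alone gave 6 higher. The differences in batch 1 and batch 2 were 0.60 and 0.59 for Prr18, 0.42 and 0.65 for Car2, and 0.51 and 0.47 for Ugt8a. Without ASO replicate 2, whose Atxn1 was at the level of vehicle-treated knockin, 11 members were higher and 1 lower, and the difference of Prr18 was 0.66 (adjusted p = 1.4e-07). Without the libraries low in Hox genes 8 were higher and 0 lower. Calls over all genes in these settings are not given, so the shifts are not shown to be particular to the members.

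**Figure D5:**
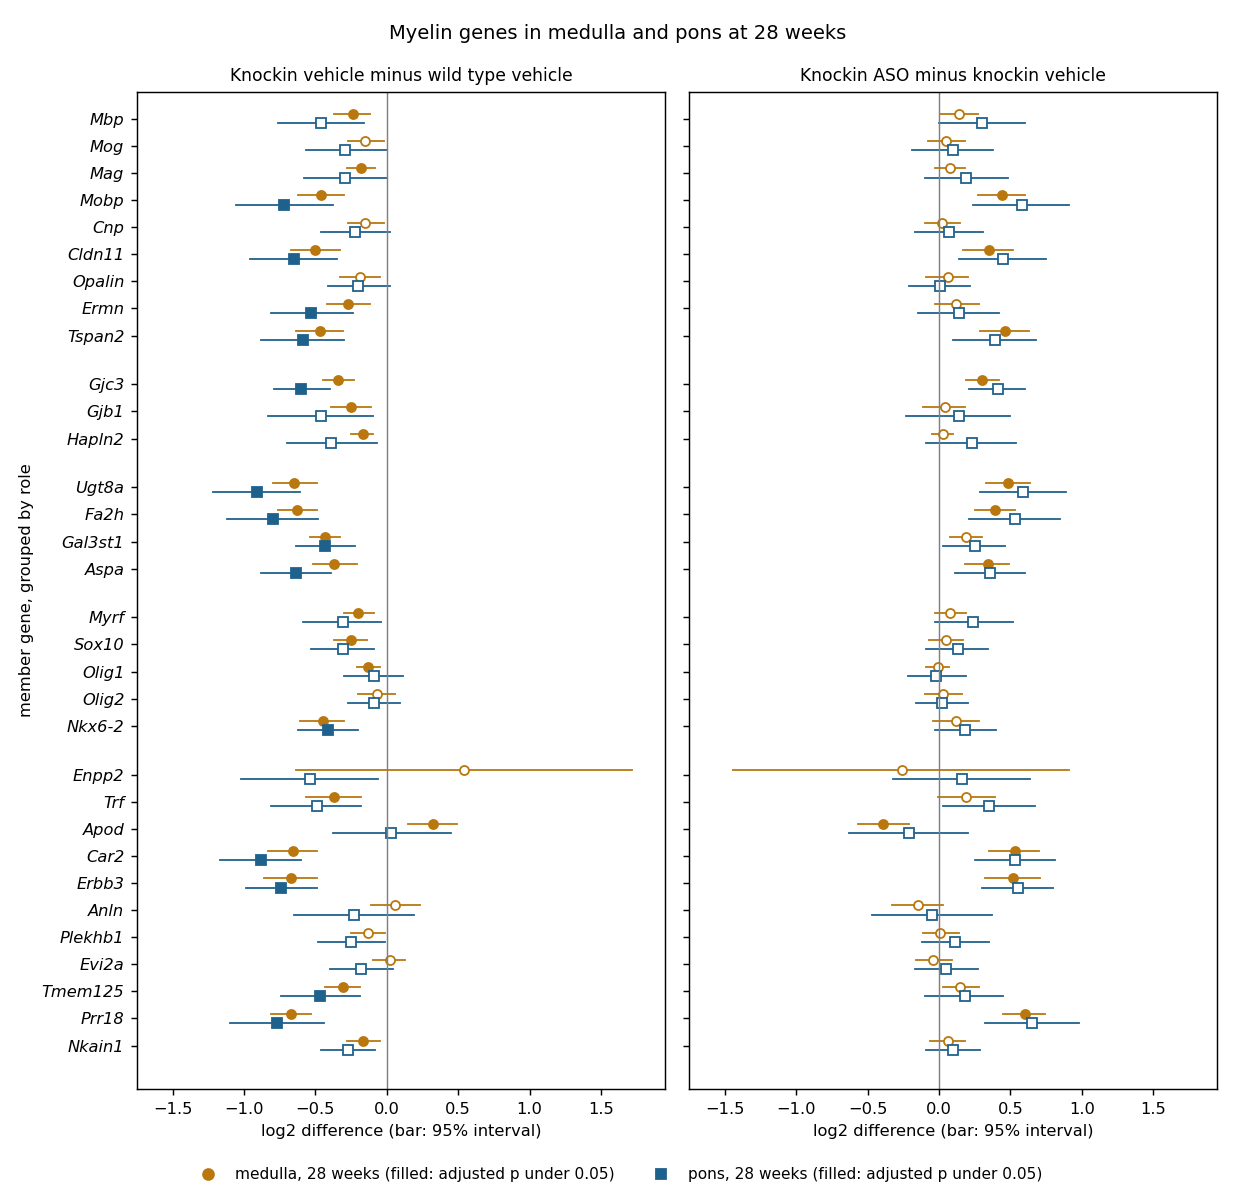
Log2 difference of each member at 28 weeks with its 95% interval, grouped by role, for vehicle-treated knockin minus wild type (left) and ASO-treated minus vehicle-treated knockin (right), in medulla (circles) and pons (squares). Filled symbols passed an adjusted p of 0.05, and the 2 panels share the vehicle-treated knockin libraries.

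In pons at 28 weeks 0 members passed between ASO-treated and vehicle-treated knockin (0.0929% of all genes; edgeR's quasi-likelihood test, smallest adjusted p 0.092). An unadjusted p under 0.05 was reached by 13 and by 14.6% of all genes, and DESeq2 called 10 higher and 0 lower. Prr18 had 165, 99.7, 124 and 131 CPM after ASO and 79.8, 78.3, 70.9 and 102 with vehicle. The library labelled ASO replicate 2 and vehicle-treated replicate 4 overlapped (0.65 ± 0.15, adjusted p = 0.12). Leaving out ASO replicate 2 gave 5 higher members, with Car2 at 0.65 ± 0.10 (adjusted p = 0.0069). Leaving out ASO replicate 4 gave 1, and leaving out vehicle-treated replicate 4 gave 8. For these settings and DESeq2, here and against wild type, calls over all genes are not given. The shifts are thus not shown to be particular to the members. Against wild type 0 members passed in ASO-treated pons (1.07% of all genes; 6 members and 18.2% of all genes at an unadjusted p under 0.05, 2 members by DESeq2, 3 without vehicle-treated replicate 4). In the test of the ASO difference between medulla and pons 0 members were called (0% of all genes, edgeR's quasi-likelihood test), and 0 had an unadjusted p under 0.05 (4.07% of all genes did). This test too had no term for the ending numbers of the column names.

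At 18 weeks no comparison between groups called a member, with 3 or 4 libraries a group. In cerebellum 0 passed between vehicle-treated knockin and wild type (2.71% of all genes did, edgeR's quasi-likelihood test). An unadjusted p under 0.05 was reached by 7 and by 14.3% of all genes. DESeq2 called 1, and 5 were lower without ASO replicate 3, a library that enters this comparison through the shared spread and scaling. Calls over all genes by DESeq2 or without that library are not given. Car2 had 239, 243, 222 and 261 CPM in wild type and 182, 201, 201 and 222 in knockin, so that the groups touched (-0.26 ± 0.08, adjusted p = 0.14). Nkain1 had 58.1, 56.9, 58.5 and 60.4 CPM against 43.7, 46.8, 46.9 and 44.9, without overlap (-0.36 ± 0.14, adjusted p = 0.23). Mbp had 2648, 2699, 2859 and 2873 CPM in wild type and 2334, 2741, 2362 and 2768 in knockin, with overlap. Between ASO and vehicle 0 passed (0.0491% of all genes did; 11 members and 7.65% of all genes at an unadjusted p under 0.05, 3 members by DESeq2).

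Cerebellar ASO replicate 3, which had the lowest Atxn1 of its group (20.2 CPM, against 32.1, 39.4 and 50.3), stood apart for several members. Mbp was 3927 CPM in it and 2691, 2887 and 3036 in the others, and Mog was 135 against 79.2, 86.6 and 92.2. Ugt8a, the lipid enzyme, was low there instead, at 61.2 against 81.9, 95 and 92. Without that library 4 members were higher with ASO than with vehicle, and calls over all genes without it are not given. With all libraries Prr18 had 53.2, 61.8, 56.5 and 55.3 CPM after ASO and 38.8, 42.2, 41.1 and 47.5 with vehicle, without overlap (0.42 ± 0.07, adjusted p = 0.085). Against wild type 0 members passed in ASO-treated cerebellum (0% of all genes did, edgeR's quasi-likelihood test; 5 members and 11% of all genes at an unadjusted p under 0.05, 0 members by DESeq2).

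In medulla at 18 weeks 0 members passed between vehicle-treated knockin and wild type, between ASO and vehicle, or between ASO and wild type, and 0% of all genes did in any of the 3 (edgeR's quasi-likelihood test; 7, 4 and 0 members, and 5.74%, 4.64% and 3.38% of all genes, at an unadjusted p under 0.05; 0, 0 and 0 members by DESeq2). Erbb3 had 32.7, 38.2 and 35 CPM in wild type and 28, 22.9 and 25.3 in vehicle-treated knockin, without overlap (-0.48 ± 0.11, adjusted p = 0.83). Car2 had 395, 512 and 498 CPM against 313, 359 and 355, also apart (-0.45 ± 0.14, adjusted p = 0.83). After ASO Car2 had 535, 377 and 512 CPM, the second of these from the library labelled ASO replicate 2. Without wild type replicate 3 and ASO replicate 2, 1 member, Prr18, passed between ASO and vehicle (0.68 ± 0.08, adjusted p = 0.028). It had 165 and 155 CPM after ASO and 98.2, 100 and 105 with vehicle. In the other comparisons 0 and 0 passed. Calls over all genes without these libraries are not given.

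In pons at 18 weeks 0 members passed in the 3 comparisons and 0% of all genes did (edgeR's quasi-likelihood test; 5, 4 and 2 members, and 12.2%, 6.29% and 2.52% of all genes, at an unadjusted p under 0.05; 0, 0 and 0 members by DESeq2). Wild type replicate 1 was low for most members, with 4476 CPM of Mbp where replicates 2 and 3 had 8023 and 7453, and 119 of Ugt8a where they had 231 and 222. Its Atxn1 was 51 CPM, above the 33.2 of replicate 2, and vehicle-treated knockin had 44.7, 45.4 and 49.3. The median member difference between knockin and wild type was 0.01, and it ranged from -0.16 to 0.11 as each library was left out. The library labelled ASO replicate 3 was low too. Its mean log2 CPM over the members was 6.80, against 6.83 in wild type replicate 1 and 7.31 and 7.06 in ASO replicates 1 and 2. Mbp was 4799 CPM in it and 6937 and 5377 in ASO replicates 1 and 2. Between ASO and vehicle 28 members were negative and 4 positive, with a median of -0.18 (-0.00 over all genes). Signs over all genes are not given. Members varied together between libraries, as described further on, so their signs are not independent. Without wild type replicate 3 and ASO replicate 2, 0, 0 and 0 members passed in the 3 comparisons, and without wild type replicate 1 0, 0 and 0. The difference of Ugt8a had an SE of 0.27, against 0.14 in pons at 28 weeks.

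Whether the knockin difference changed between 18 and 28 weeks was tested directly. In medulla 0 members were called (0.0046% of all genes, edgeR's quasi-likelihood test), with 6 members and 12.2% of all genes at an unadjusted p under 0.05. In pons 0 were called (0% of all genes, smallest adjusted p 0.081), with 15 members and 23% of all genes at an unadjusted p under 0.05, and a median change of -0.48 (0.02 over all genes). Ermn, the actin-binding sheath protein, had a change of -0.98 ± 0.27, adjusted p = 0.081, and Ugt8a of -0.95 ± 0.31, adjusted p = 0.097. In pons leaving out vehicle-treated replicate 1 of 18 weeks, the library high in Ttr, gave 5 members, leaving out replicate 3 gave 1, leaving out wild type replicate 2 of 18 weeks gave 1, and leaving out knockin replicate 4 of 28 weeks gave 3. Leaving out the library labelled wild type replicate 3 of 18 weeks gave 0 in medulla and 0 in pons, and leaving out pons wild type replicate 1 gave 0. The share over all genes with a library left out is not given, so these counts are not shown to be particular to the members. Calls at 28 weeks and none at 18 weeks are thus not shown to be a change with age.

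Other genes of the lineage were read from further lists. Of 21 other oligodendrocyte and myelin genes 14 fell in knockin medulla at 28 weeks and 0 rose, and 10 fell in pons. Over all genes 9.99% fell and 9.28% rose in medulla, and 5.65% fell in pons. Qdpr, a pteridine reductase, fell by 0.58 ± 0.07 in medulla (adjusted p = 2.9e-06). Cholesterol is the other main lipid of myelin, and of its 21 synthesis genes 15 fell in medulla and 17 in pons, with medians of -0.26 and -0.41. Mvd, a decarboxylase of that pathway, had -0.62 ± 0.08 (adjusted p = 4.6e-06) in medulla and -0.76 ± 0.06 (adjusted p = 2.1e-05) in pons, and Cyp51, the lanosterol demethylase, had -0.49 ± 0.06 and -0.61 ± 0.07. Of 18 other sphingolipid and fatty acid enzymes 5 fell in medulla and 5 in pons, among them in medulla the desaturases Scd1 (-0.34 ± 0.06) and Scd2 (-0.38 ± 0.05), while the median of the list was -0.02 in medulla. With ASO in medulla 5 of the other myelin genes, 3 of the enzymes and 0 of the cholesterol genes were higher than with vehicle (edgeR's quasi-likelihood test). An unadjusted p under 0.05 was reached by 4 cholesterol genes and by 12.1% of all genes. Against wild type 8 cholesterol genes were lower. Over all genes 1.3% were higher than with vehicle and 2.02% lower than in wild type.

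Regulators and earlier stages did not move one way. Of 23 other regulators of oligodendrocyte differentiation 3 fell and 4 rose in medulla, with a median of 0.01. Over all genes 9.99% fell and 9.28% rose there, and the counts of these lists were not tested against those shares. Zfp488, a zinc finger factor of the lineage, rose by log2 0.91 ± 0.09 in medulla (adjusted p = 4.5e-07) and 1.02 ± 0.14 in pons (adjusted p = 0.0013), and its difference between ASO and vehicle in medulla was -0.50 ± 0.10, adjusted p = 0.0063. Sox8, a close relative of Sox10, rose by 0.27 ± 0.04 (adjusted p = 0.00015). Of 8 precursor genes 3 fell and 1 rose. Pdgfra, the growth factor receptor of precursors, fell by 0.15 ± 0.05 (adjusted p = 0.037), Cspg4 fell by 0.25 ± 0.07 (adjusted p = 0.011), and Gpr17, a receptor of cells about to differentiate, fell by 0.59 ± 0.09 (adjusted p = 6.9e-05). Of 8 genes of newly formed oligodendrocytes 1 fell and 2 rose, Itpr2 by 0.19 ± 0.06 and Enpp6 by 0.21 ± 0.07. Of 5 stress and antigen genes 1 fell and 3 rose, among them H2-D1 by 0.23 ± 0.04 and H2-K1 by 0.31 ± 0.07.

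Markers of other cells also moved in the knockin medulla at 28 weeks, where 9.99% of all genes fell and 9.28% rose. Their part in the results above was not tested. Of 8 astrocyte genes 6 fell (summed level 4744 to 6313 CPM in wild type and 3154 to 4035 in knockin), with Slc1a2, the glutamate transporter, at -0.91 ± 0.09 and Aqp4 at -0.30 ± 0.09. Of 10 neuron genes 5 fell (summed 9017 to 10195 and 7066 to 9096 CPM), with Rbfox3 at -0.23 ± 0.07. Of 8 microglial and 7 endothelial genes 0 passed (edgeR's quasi-likelihood test, with 2 and 2 and 31.3% of all genes at an unadjusted p under 0.05). Of 5 ependymal genes 3 fell and 1 rose, with Foxj1 at -0.41 ± 0.13. Schwann cells make myelin in nerve roots, and their gene Prx was at 0.32 to 1.66 CPM over the 23 libraries.

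Within groups most members varied together between libraries. Over the 65 libraries, with the mean of each group and batch removed, the median correlation of the log2 levels of a pair of members was 0.52, from -0.33 to 0.92, and 463 of 496 pairs were positive. These points share a library, its depth and its dissection, and the values are a description. Mbp had a median correlation of 0.73 with the other members, Mog 0.66, Opalin 0.30 and Tspan2 0.34; Nkain1 with 0.18 and Enpp2 with -0.08 were the lowest.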

How the data were processed

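RNA from 65 samples was sequenced with stranded total RNA libraries, per the labels' protocols. The authors deposited raw counts per gene. HISAT2 2.0.2, featureCounts of Subread, DESeq2 1.14.1, R 3.3.3, CASAVA 1.8 and GRCm38 are named in the submitters' processing notes, without roles; strand and read-pair settings are not given in the sources used here. Even values made up 70.0% to 78.6% of counts from 1 to 20, and whether mates were counted singly was not tested, so the effective depth may be below the 49.2 to 119.1 M counts per library. Symbols were paired with 49325 of 49670 identifiers.

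Counts were tested with edgeR 4.0.16 (R 4.3.3, limma 3.58.1): TMM scaling, filterByExpr with a minimum count of 10, robust quasi-likelihood fits of the 3 groups of each region and age, a batch term in medulla at 28 weeks, and p-values adjusted by Benjamini-Hochberg across every gene tested, with calls at an adjusted p under 0.05. Differences of differences and region contrasts used joint fits. Levels are TMM-scaled CPM, divided by exon length in kb where genes are compared. Alternatives were RLE size factors, no filter, DESeq2 1.42.0, replicate blocks, batches alone, only the groups compared, and each library left out; those on Hox-low libraries, on ending numbers of column names, and, for the region contrasts, on Atxn1 against labels were chosen after seeing the data. The fits were run on simulated counts with known changes, without batch effects or outlying libraries, and the outcome is not given here.

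Named were all members, Atxn1, defining markers of other cells, and from each other list up to 2 genes of smallest adjusted p. Members and lists were chosen with earlier results of these data known. Overlapping genes were read from the exon annotation, and promoters from RefSeq; 10 members had no window.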

Additional observations from a re-analysis of the deposited data

Results flagged for a closer look

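In groups of 4 to 10 libraries, 24 of 288 combinations of a member and a group held a library whose gap to the others was wide against the group's range, by Dixon's test at 95%; chance gives about 1 in 20. Vehicle-treated knockin replicate 4 of pons at 28 weeks was high for 9 members: Mog 231 CPM (others 150 to 160), Cnp 944 (659 to 678), Cldn11 228 (154 to 164), Gjc3 131 (107 to 107), Nkx6-2 35 (24.1 to 25.4), Enpp2 545 (402 to 414), Apod 913 (524 to 561), Plekhb1 946 (677 to 715) and Tmem125 32.9 (22.5 to 23.3).

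ASO replicate 2 of medulla at 28 weeks, labelled ASO-treated but with Atxn1 at the level of vehicle, was low for 7 members: Cnp 672 CPM (others 815 to 918), Cldn11 182 (251 to 301), Tspan2 174 (253 to 301), Aspa 58.8 (78.1 to 93), Car2 349 (476 to 580), Tmem125 27.7 (33.8 to 38.5) and Prr18 108 (144 to 176).

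The other 8 were in other libraries. In cerebellum Plekhb1 was 482 CPM in wild type replicate 1 (others 515 to 522), and in ASO replicate 3 Trf was 60.8 (21.2 to 24.9) and Evi2a 47.4 (27.2 to 29.7). In medulla at 28 weeks Fa2h was 167 in wild type replicate 8 (125 to 138), Enpp2 8474 in knockin replicate 2 (651 to 1842) and Myrf 141 in ASO replicate 4 (158 to 169). In pons at 28 weeks Mobp was 2896 in wild type replicate 1 (2594 to 2615) and Enpp2 995 in wild type replicate 2 (516 to 541).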

How the results depend on the processing

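Over 22 comparisons, no difference of a single member reversed its call, but many calls were lost in some setting. At 28 weeks, 10 of 24 calls for knockin against wild type in medulla held in all settings, 0 of 11 for ASO against vehicle and 0 of 4 for ASO against wild type; in pons 7 of 14 for knockin against wild type held. Of the region calls, 28 of 30 held for cerebellum against medulla, 24 of 30 against pons and 0 of 4 for medulla against pons. Leaving out each library in turn gave 22 to 25 called members for knockin against wild type in medulla at 28 weeks, 9 to 12 for ASO against vehicle and 2 to 6 for ASO against wild type there. In pons at 28 weeks it gave 7 to 26, 0 to 8 and 0 to 3, in cerebellum 0 to 5, 0 to 4 and 0 to 0, and for wild type medulla against pons 1 to 6. For the change of the knockin difference with age in pons it gave 0 to 5, and for its difference between medulla and pons 0 to 1. In medulla at 28 weeks batch 1 alone gave 13 members for knockin against wild type, and 0 each for ASO against vehicle and against wild type, with fewer libraries; batch 2 alone gave 6 and 0 for the last 2. For ASO against wild type there, no batch term gave 2 and leaving out libraries low in Hox genes 1. DESeq2 called 1 member for knockin and 3 for ASO against vehicle in cerebellum, and 10 and 2 for ASO against vehicle and wild type in pons at 28 weeks; only the 2 groups compared gave 7 for knockin in cerebellum. Leaving out wild type replicate 3 and ASO replicate 2, whose Atxn1 went against their labels, gave 1 for ASO against vehicle in medulla at 18 weeks. Wild type medulla against pons gave 12 with wild type libraries alone and 0 with column-name numbers as the block. These counts are of members alone, and calls over all genes in the same settings are not set beside them. The cause of these shifts was not tested.

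Replicate numbers were not shown to pair the groups. Deviations of same-numbered libraries correlated from -0.95 to 0.9, and values for differently numbered libraries are not set beside them. With a replicate block, ASO against wild type in medulla at 28 weeks gave 2 members and wild type medulla against pons 1; the other counts stayed within 1.5 times.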
